A study of Mus musculus with 12 samples.

Results

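Aminoacyl-tRNA synthetases are the enzymes that join each amino acid to its own transfer RNA, the step that sets the accuracy of protein synthesis. Mammalian cells carry 2 sets of these enzymes, both encoded in the nucleus. One set charges tRNAs in the cytosol, and the other is imported into mitochondria and charges the tRNAs encoded by mitochondrial DNA. Several cytosolic enzymes sit together in a large particle, the multisynthetase complex. In mammals, transcription of many cytosolic synthetase genes is known to be induced by ATF4, the transcription factor of the amino acid response and of the integrated stress response. Protein synthesis takes place in dendrites as well as in the cell body, and synthetase mRNAs were measured here in bulk RNA of the soma and neurite fractions of neuron cultures.

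The genes were chosen by symbol among all genes of the count tables. A protein-coding gene was taken when its mouse symbol was a 1-letter amino acid code followed by "ars", with or without an ending, or was that of the glutamyl-prolyl enzyme Eprs. This gave 37 genes of the 27179 listed, of which 20 encode cytosolic enzymes and 17, whose symbols end in 2, encode mitochondrial enzymes. Gars and Kars, for glycine and lysine, encode both forms from a single gene and were counted as cytosolic. Symbols are those of RefSeq for GRCm38.p6, in which Aars, Cars and most other cytosolic genes carry no number. All 37 genes passed the filter on low counts and were tested.

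The cells were primary hippocampal neurons, of C57BL/6 mice by the labels of all 12 libraries, taken from pups at postnatal day 0 or 1 and grown for 17 or 18 days on porous Transwell inserts, where cell bodies stay on top and neurites (dendrites and axons) pass through the pores. Ctrl neurons received the solvent DMSO and no MG132, and MG132 neurons received the proteasome inhibitor MG132 at 10 μM for 7 h. Somas and neurites were then harvested separately, which gave 4 groups of 3 libraries: Ctrl somas, MG132 somas, Ctrl neurites and MG132 neurites. The study's methods name FVB beside C57BL/6 mice as sources of its neurons. The labels do not say whether the 3 libraries of a group came from separate cultures, so a p-value measures only the spread between these libraries, which may be technical.

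The libraries held from 4247610 to 22166347 counts. The synthetases were measured with unequal precision. Levels are given as CPM, read counts brought to a common library size with TMM factors, which correct for a few genes taking much of a library. A gene is called higher or lower at an adjusted p (Benjamini-Hochberg over all 14185 tested genes, edgeR quasi-likelihood test) under 0.05. SE is the standard error of a log2 fold change, and ± gives the SD over 3 libraries.

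Per length, the cytosolic mRNAs were the more abundant class in Ctrl somas. Their median level was 12.8 CPM per kb of exon, and that of the mitochondrial genes without Lars2 was 2.17 CPM per kb. Nars, the asparaginyl enzyme, was highest among the cytosolic genes at 40.7 CPM per kb ± 3.44, and Vars, the valyl enzyme, was lowest at 4.52 ± 0.431. In level per length Nars was above Dars (27.8 ± 1.06), and its libraries, at 36.9 to 43.6, did not overlap those of Dars, at 26.8 to 28.9. Dars, Eprs (26.7 ± 3.3) and Gars (24.7 ± 0.418) followed each other within the spread of Eprs. From Hars (17.5 ± 2.21) down to Farsb (12.3 ± 0.723) each gene differed from its neighbour in this order by less than the larger of their SDs. Among the mitochondrial genes other than Lars2, Rars2 was highest at 8.67 CPM per kb ± 1.12 and Ears2, for glutamate, was lowest at 0.555 ± 0.0781.

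**Figure D1:**
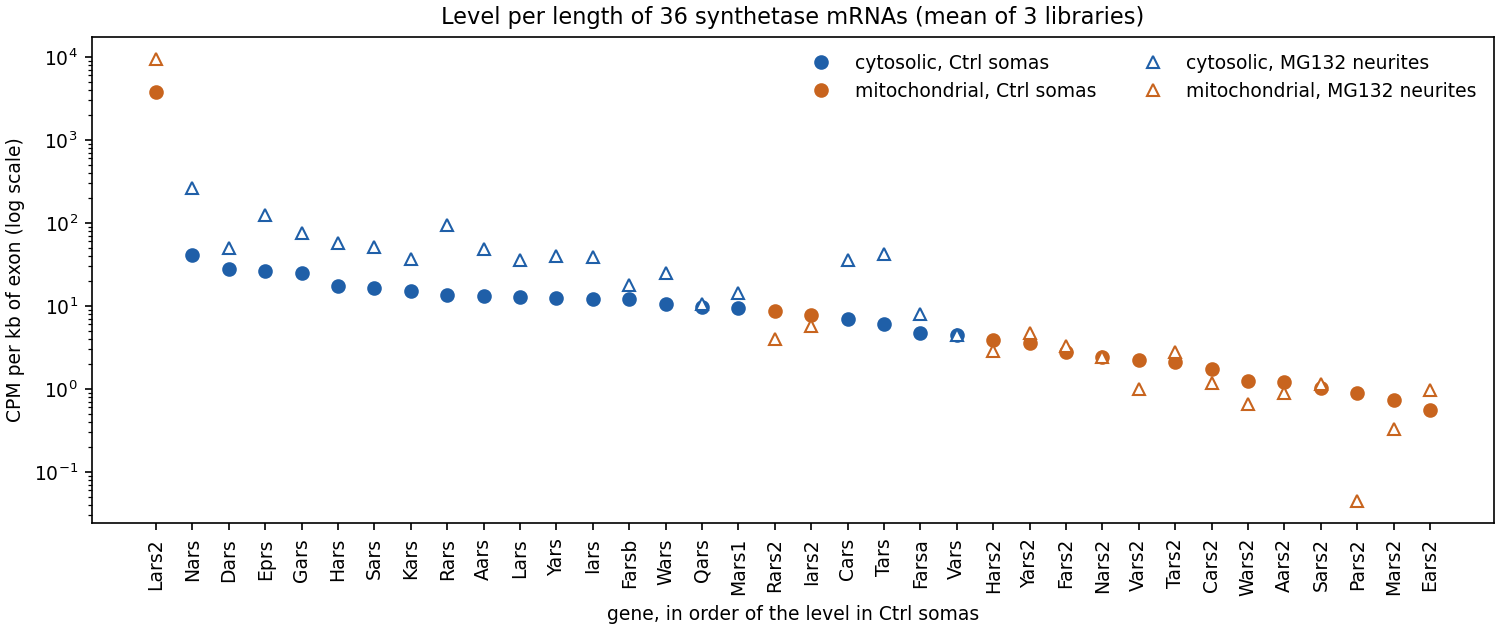
Each point is the mean level of 1 synthetase mRNA over 3 libraries, in CPM per kb of exon on a log axis, for 36 of the genes, along the x axis in order of their level in Ctrl somas. Filled circles are Ctrl somas and open triangles MG132 neurites, in blue for cytosolic and orange for mitochondrial genes. Lars2 stands far above the rest, at 3819 CPM per kb in Ctrl somas, and Ears2 is last at 0.555.

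Lars2, the mitochondrial leucyl enzyme at chr9:123366927-123462675 (GRCm38, + strand), carried far more counts than any other synthetase. It held 169052, 117995 and 180397 counts in the 3 Ctrl soma libraries, and from 86192 to 458577 over all 12. This was 77.3% to 97.2% of the counts of all 37 genes and 1.3% to 3.15% of a library. Its 3894-base transcript matched parts of 2 other transcripts by BLAST. Bases 3278 to 3349 matched the antisense transcript Gm15564 over 72 bases at 98.6% identity, and bases 3163 to 3329 held matches to AA474408 of 50 bases at 96% and 97 bases at 94.8%. The single most abundant gene of every library, listed under Entrez identifier 100861531, took 12.4% to 33.4% of the counts, and the Lars2 count was 8.71% to 13.9% of that gene's count in each library. The part of reads from other transcripts in the Lars2 count was not tested. Medians of the mitochondrial genes under MG132, and comparisons of the classes, are therefore given with and without Lars2, or without it.

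MG132 was followed by higher levels of most cytosolic synthetase mRNAs in the somas. Of the 20 cytosolic genes 16 rose and none fell, where 15.5% of all tested genes were called higher and 11.9% lower. Dars alone had a negative value with an unadjusted p under 0.05 there, and DESeq2 called it lower. The median log2 fold change over the 20 was 1.37, with a range of -0.56 to 2.52, and the median over all tested genes was -0.07. In the neurites 17 of the 20 rose and none fell, against 14.7% of all tested genes called higher and 12.3% lower, and the median was 1.37 with a range of -0.18 to 2.69, beside -0.16 for all tested genes. All 16 genes that rose in somas rose in neurites too, and Dars was the only one added there. Without Gars and Kars the counts were 14 of 18 in somas and 15 of 18 in neurites. At a stricter rule of adjusted p under 0.01 and a log2 fold change above 1.7, 7 cytosolic genes were higher in somas (Aars, Cars, Eprs, Iars, Nars, Rars and Tars), where 2.11% of tested genes were, and 7 in neurites, with Gars in place of Eprs, where 2.44% were.

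The summed level of the 20 cytosolic mRNAs shows the size of this change library by library. The sum was 873, 992 and 933 CPM in Ctrl somas and 2693, 2621 and 2944 CPM in MG132 somas. In neurites it was 967, 1110 and 1217 CPM in Ctrl and 3310, 3590 and 3449 CPM after MG132. Every MG132 library lay above every Ctrl library of its fraction, and the ratio of the means was 2.95 in somas and 3.14 in neurites. Over same-numbered libraries the lowest and highest ratios were 2.64 and 3.16 in somas, and 2.83 and 3.42 in neurites. The 16 mitochondrial genes without Lars2 summed to 152, 146 and 157 CPM in Ctrl somas and 120, 130 and 135 CPM in MG132 somas. In neurites they summed to 135, 132 and 135 CPM in Ctrl and 106, 114 and 105 CPM after MG132. These sums were lower in every MG132 library, with ratios of the means of 0.846 and 0.808. A sum is weighted to the most abundant genes, and Iars2 alone went from a mean of 42.2 to 22 CPM in somas. The median log2 fold change of the 16 genes was 0.19 in somas, where 9 had positive values. In neurites it was -0.21, and 5 had positive values.

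**Figure D2:**
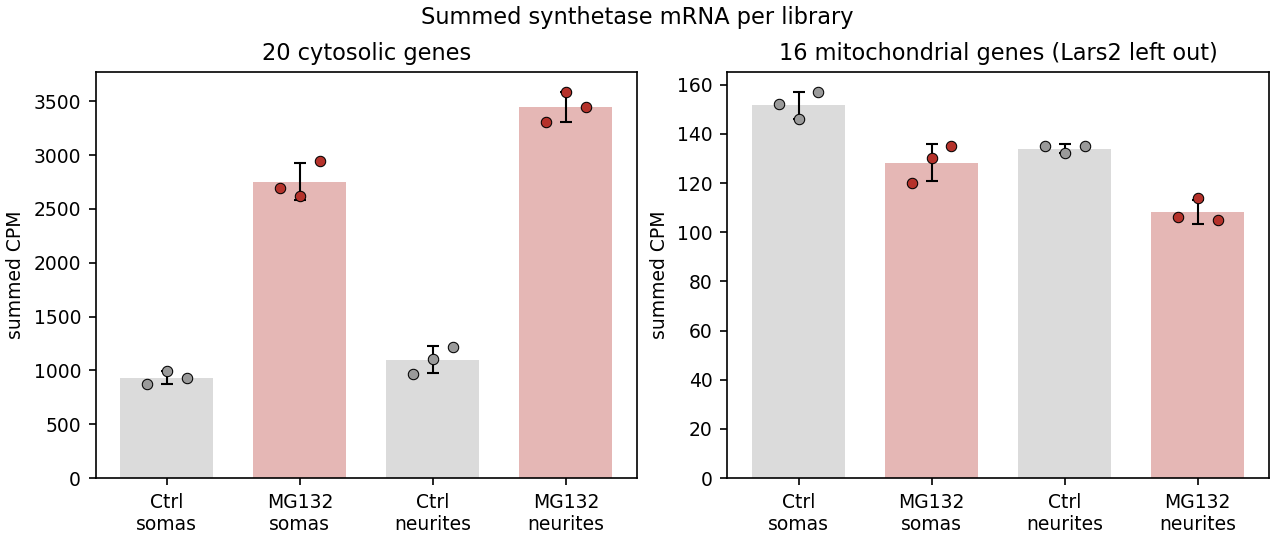
Bars give the mean summed CPM of the 20 cytosolic genes (left) and of the 16 mitochondrial genes without Lars2 (right) in the 4 groups, lines the SD, and points the 3 libraries. The cytosolic sums of the MG132 libraries lie between 2621 and 3590 CPM and those of the Ctrl libraries between 873 and 1217, while the mitochondrial sums stay between 105 and 157.

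Markers of the other cells in these cultures moved with the treatment and are given here beside the counts. The labelled cell type was present, with all 8 neuron markers detected and none called in either fraction (median log2 fold change -0.25 in somas and -0.28 in neurites, Camk2a the most abundant). The 8 neuron markers summed to 2281, 1404 and 1395 CPM in Ctrl somas and 1908, 997 and 1266 in MG132 somas. In neurites they summed to 3868, 1701 and 1867 CPM in Ctrl and 2763, 1179 and 1943 after MG132. Glial markers were also abundant, and the astrocyte sums lay above the neuron sums in every group. Sums over different genes do not give shares of cells. The 8 astrocyte markers summed to 5240, 5903 and 4728 CPM in Ctrl somas and 2651, 3251 and 2480 in MG132 somas, and to 21276, 26022 and 20893 CPM in Ctrl neurites and 12271, 19862 and 9686 in MG132 neurites, with Gfap the most abundant. Over all tested genes 11.9% were called lower in somas and 12.3% in neurites, the shares to set beside the marker counts that follow. Of these 8 astrocyte markers, 6 fell in somas and 3 in neurites, among them Aqp4, the water channel of astrocyte endfeet, with log2 fold changes of -2.36 and -1.45. The 6 microglia markers summed to 504, 618 and 594 CPM in Ctrl somas and 124, 217 and 146 in MG132 somas, and to 507, 532 and 1000 CPM in Ctrl neurites and 76.6, 128 and 170 in MG132 neurites. Of them 3 fell in somas and 5 in neurites, and Cx3cr1, a chemokine receptor of microglia, had log2 fold changes of -5.77 and -5.88. Of the 7 oligodendrocyte lineage markers 2 fell in each fraction, Pdgfra and Cspg4, which mark the precursors. These 7 summed to 3211, 1403 and 6612 CPM in Ctrl somas and 1734, 500 and 6186 in MG132 somas, and to 13960, 4944 and 22810 CPM in Ctrl neurites and 7083, 2905 and 16529 in MG132 neurites, with Mbp the most abundant in all groups but Ctrl somas. The 4 vascular and fibroblast markers summed to 99.3, 87.8 and 82.5 CPM in Ctrl somas and 29, 27.9 and 22.6 in MG132 somas, and to 32.8, 25.5 and 23.3 CPM in Ctrl neurites and 16.2, 18.2 and 12.2 in MG132 neurites. Both tested members fell in somas, Col1a1 by 2.15 and Dcn by 1.06 on the log2 scale, and Col1a1 fell by 1.15 in neurites, where Dcn had a value of -0.31. Col1a1, a fibrillar collagen, was the most abundant, and Cldn5 was at 0 in all groups but Ctrl somas. No marker list was at 0, and the part of these cells in the synthetase changes was not tested. In bulk RNA, fewer cells of a type and less RNA per cell cannot be told apart.

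Cars, which charges tRNA with cysteine, had the largest fitted change of the synthetases in both fractions. Its level was 19.6, 27.4 and 21.2 CPM in Ctrl somas and 128, 131 and 130 CPM in MG132 somas. In neurites it was 19, 20.7 and 13.8 CPM in Ctrl and 110, 126 and 109 CPM after MG132. The groups stood well apart, with log2 fold changes of 2.52 (SE 0.19, adjusted p = 8.83e-07) in somas and 2.69 (SE 0.20, adjusted p = 7.36e-07) in neurites. Tars, the threonyl enzyme, had 27.6, 27.2 and 17.7 CPM in Ctrl somas and 116, 99.4 and 119 in MG132 somas. In neurites Tars rose from 22.2, 29.9 and 28.6 CPM to 183, 172 and 158. No MG132 library of Tars came near a Ctrl library, and the log2 fold changes were 2.20 (SE 0.20, adjusted p = 4.48e-06) and 2.66 (SE 0.20, adjusted p = 8.28e-07).

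Rars, the arginyl enzyme of the multisynthetase complex, was at 27, 28.8 and 29.4 CPM in Ctrl somas and at 117, 148 and 148 CPM in MG132 somas. In neurites Rars was at 28.5, 39.5 and 37.3 CPM in Ctrl and 186, 227 and 179 CPM after MG132. These groups did not overlap, and the log2 fold changes were 2.28 (SE 0.18, adjusted p = 1.26e-06) in somas and 2.48 (SE 0.18, adjusted p = 7.36e-07) in neurites. Aars, the alanyl enzyme, rose from 67.7, 82.9 and 78 CPM to 339, 307 and 339 CPM in somas. In neurites it was at 64, 70 and 68.2 CPM in Ctrl and at 283 ± 35.9 after MG132. The Aars changes were close in size in the 2 fractions, at 2.11 (SE 0.16, adjusted p = 8.83e-07) and 2.07 (SE 0.16, adjusted p = 9.15e-07). Aars shares 1326 exon bases with Exosc6 on the same strand, and Exosc6 was at 2.19 and 2.11 CPM in Ctrl and MG132 somas.

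Nars had the highest level per length of the cytosolic genes in every group. It stood at 101, 120 and 114 CPM in Ctrl somas and at 422, 426 and 472 in MG132 somas. In neurites it stood at 160, 168 and 224 CPM in Ctrl and at 707, 723 and 767 after MG132. The log2 fold changes were 1.98 (SE 0.17, adjusted p = 2.99e-06) and 1.99 (SE 0.17, adjusted p = 2.38e-06), and the 4 groups did not overlap one another. Iars, the isoleucyl enzyme, rose in somas from 42.5, 48.5 and 72.2 CPM to 179, 180 and 209, and in neurites from 22.5, 42.1 and 44 to 161, 195 and 159 CPM. Its log2 fold change was 1.80 (SE 0.25, adjusted p = 1.24e-04) in somas and 2.24 (SE 0.25, adjusted p = 2.22e-05) in neurites.

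**Figure D3:**
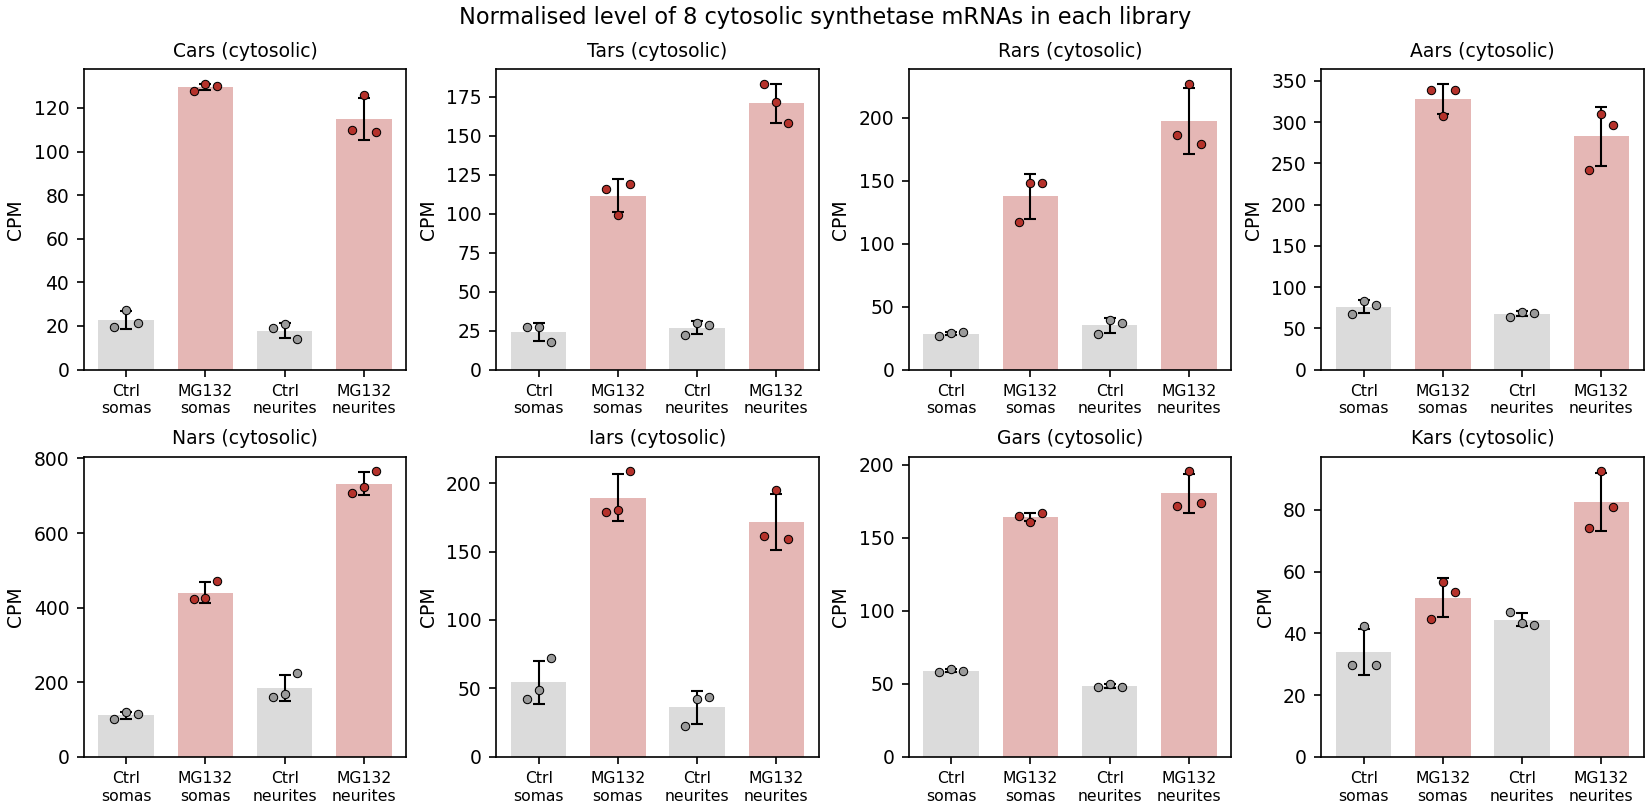
Bars give the mean CPM of 8 cytosolic synthetase mRNAs in the 4 groups, lines the SD, and points the 3 libraries, with Ctrl in grey and MG132 in red. In each panel the MG132 libraries lie above the Ctrl libraries of the same fraction, from Cars with 128 to 131 CPM against 19.6 to 27.4 in somas down to Kars with 44.5 to 56.8 against 29.6 to 42.5.

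The 2 genes that serve both compartments rose in both fractions. Gars, the glycyl enzyme, was at 57.9, 59.9 and 58.7 CPM in Ctrl somas and 165, 161 and 167 in MG132 somas, and at 47.8, 50 and 47.5 CPM in Ctrl neurites and 172, 196 and 174 in MG132 neurites. Its log2 fold changes were 1.48 (SE 0.14, adjusted p = 7.05e-06) and 1.90 (SE 0.14, adjusted p = 7.56e-07), with no overlap between Ctrl and MG132. Kars, the lysyl enzyme, was at 29.8, 42.5 and 29.6 CPM in Ctrl somas and 44.5, 56.8 and 53.5 in MG132 somas. In neurites Kars was at 46.8, 43.5 and 42.8 CPM in Ctrl and 74.1, 92.7 and 81 after MG132. The log2 fold changes of Kars were 0.60 (SE 0.19, adjusted p = 0.0277) in somas and 0.90 (SE 0.19, adjusted p = 0.00273) in neurites. The soma call for Kars was lost without Ctrl soma library 1 or 3 or without MG132 soma library 2 or 3, with log2 fold changes of 0.52 to 0.79 over the 6 fits that each left out 1 library.

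The other cytosolic genes that rose in both fractions were Eprs, Farsa, Hars, Lars, Mars1, Sars, Wars and Yars. Eprs, which carries the glutamyl and prolyl activities in 1 protein, rose by 1.79 (SE 0.17) in somas and 1.67 (SE 0.17) in neurites on the log2 scale. Yars for tyrosine rose by 1.55 and 1.53, and Sars for serine by 1.43 and 1.39. Farsa, the alpha chain of the phenylalanyl enzyme, rose by 1.31 (SE 0.40) and 1.24 (SE 0.42). Farsa is a low gene, at 8.69, 11.1 and 6.39 CPM in Ctrl somas, and its neurite groups overlapped. Its soma call was lost without Ctrl soma library 1 or 3 or MG132 soma library 1, and its neurite call without Ctrl neurite library 1 or 3 or MG132 neurite library 2 or 3, with log2 fold changes of 1.12 to 1.52 and 0.94 to 1.73. Lars for leucine rose by 1.23 in somas and 0.74 in neurites, Hars for histidine by 1.21 and 1.36, Wars for tryptophan by 1.14 and 1.22, and Mars1 for methionine by 1.01 and 1.24. Mars1 overlaps Ddit3 by 68 bases on the opposite strand, and Ddit3, a transcription factor of the stress response, rose by 2.36 and 1.74 on the log2 scale.

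Qars, Vars and Farsb were not called in either fraction. Qars, the glutaminyl enzyme, was at 27.9, 24.4 and 28.5 CPM in Ctrl somas and 34.5, 26.9 and 29.6 in MG132 somas, with a log2 fold change of 0.17 (SE 0.21) there and -0.18 (SE 0.21) in neurites. Vars was at 17.3, 20.7 and 18.1 CPM in Ctrl somas and 23.9, 19.6 and 23.4 in MG132 somas, with log2 fold changes of 0.26 (SE 0.25) and 0.39 (SE 0.25). Farsb, the beta chain that pairs with Farsa, had log2 fold changes of 0.36 (SE 0.21, adjusted p = 0.23) and 0.48 (SE 0.22, adjusted p = 0.116). The fitted values of these 3 genes lay below the median of their class in both fractions.

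Dars, the aspartyl enzyme at chr1:128363707-128417416, gave values on opposite sides of 0 in the 2 fractions. It was at 67.9, 66 and 71.2 CPM in Ctrl somas and 31.5, 44.2 and 62.5 in MG132 somas. In neurites it was at 55.2, 75.7 and 87.2 CPM in Ctrl and 110, 123 and 136 after MG132. The groups did not overlap in either fraction. In somas the log2 fold change was -0.56 (SE 0.23, adjusted p = 0.0809), and with the replicate number as a block it was -0.62 and was called (adjusted p = 0.00564). In neurites Dars rose by 0.76 (SE 0.23, adjusted p = 0.0234), a call that was lost without Ctrl neurite library 1 or 2 or MG132 neurite library 2, with values of 0.60 to 1.03. The difference between the 2 responses (neurites minus somas) was 1.32 (SE 0.32), and it was in the same direction in 3 of 3 same-numbered sets of libraries. Over all tested genes its adjusted p was 0.328 in edgeR, and it was 0.00557 with the replicate block and 0.0116 in DESeq2.

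**Figure D4:**
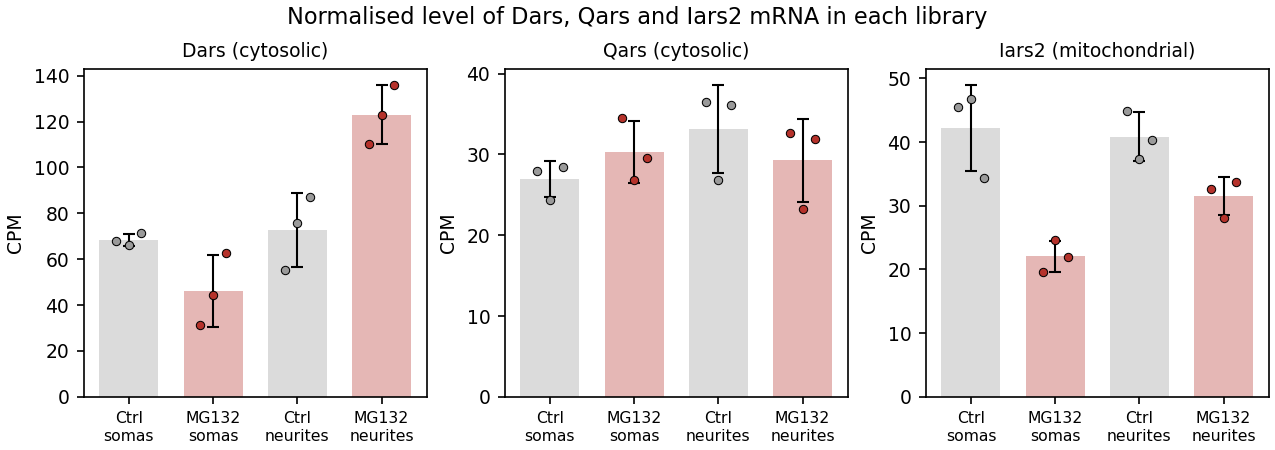
Bars give the mean CPM of Dars, Qars and Iars2 in the 4 groups, lines the SD, and points the 3 libraries, with Ctrl in grey and MG132 in red. Dars is lower in MG132 somas (31.5 to 62.5 CPM) and higher in MG132 neurites (110 to 136 CPM) than in the Ctrl libraries, and Iars2 is lower in MG132 somas (19.6 to 24.6 CPM) than in Ctrl somas (34.4 to 46.7 CPM).

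For the remaining cytosolic genes the test of the difference between fractions made no call. Among all 37 genes none was called in edgeR in either direction, where 0% of all tested genes were called higher and 0% lower. Without adjustment Dars and Gars among the 37 and 1000 of all tested genes had p under 0.05 for this difference, and DESeq2 called 58 genes and the replicate block 90. Gars ranked next after Dars, with a difference of 0.42 (SE 0.20, edgeR adjusted p = 0.709).

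Membership of the multisynthetase complex and the structural class of the enzyme split the cytosolic genes in ways the choice of genes did not use. Of the 8 complex members (Dars, Eprs, Iars, Kars, Lars, Mars1, Qars and Rars) 6 rose in somas and 7 in neurites, with medians of 1.12 and 1.07. Of the 12 genes outside the complex 10 rose in each fraction, with medians of 1.45 and 1.46. Class I and class II enzymes have unrelated catalytic folds. Of 9 class I genes 7 rose in each fraction, and of 10 class II genes 8 rose in somas and 9 in neurites, with soma medians of 1.23 and 1.37. Eprs holds a domain of each class and was left out of this split. Over all tested genes 15.5% were called higher in somas and 14.7% in neurites. These counts are descriptions, and no difference between the subsets was tested.

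RefSeq promoter windows (GRCm38.p6, 250 bases before to 50 after the start site) matched 13 of the 20 cytosolic and 14 of the 17 mitochondrial genes. Among those not matched were Cars, Hars, Lars, Nars, Rars, Vars, Wars, Hars2 and Pars2. Both strands were searched for TGATGNAA, the core of the composite element bound by ATF4 with C/EBP partners. It was present in 5 of the 13 cytosolic windows and in 0 of the 14 mitochondrial ones, beside 4.13% of 17492 protein-coding genes. All 5 genes were among the 10 matched cytosolic genes that rose in somas. A match is a description of letters in a window and no evidence of binding. The 30-base stretches are shown because these genes rose together, read 5′ to 3′ on the strand of the gene, with the match in capitals and its first base counted from the start site as position 0. No more than 1 match is shown for a gene, and not every match is printed. In all but Yars the match shown lies on the opposite strand.
Aars, chr8:111033840-111033869, position 9: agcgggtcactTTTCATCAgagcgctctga
Gars, chr6:55037960-55037989, position -30: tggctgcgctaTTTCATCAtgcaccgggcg
Iars, chr13:49682126-49682155, position 7: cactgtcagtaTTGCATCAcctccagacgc
Tars, chr15:11399655-11399684, position -15: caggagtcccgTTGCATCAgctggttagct
Yars, chr4:129189895-129189924, position 3: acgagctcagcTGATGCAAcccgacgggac

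The second motif searched was GAANNTTC, in which 2 units of the heat shock element face each other. It reads the same on both strands and does not overlap the first in these windows. It was present in 8.44% of protein-coding genes, in 0 mitochondrial synthetase windows and in 1 cytosolic window, that of Dars.
Dars, chr1:128417473-128417502, position -75: ggctctgcaggGAAGATTCctcggagccta

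None of the mitochondrial synthetase mRNAs was called higher under MG132. In somas 0 of 17 were called higher and 2 lower, with Iars2 among them, beside 15.5% and 11.9% of all tested genes, and the median log2 fold change was 0.18. In neurites 0 were called higher and 1 lower, beside 14.7% and 12.3%, and the median was -0.16. Without Lars2 the medians were 0.19 and -0.21 and the calls were the same. At an unadjusted p under 0.05, 1 was higher in somas (Tars2) and 0 in neurites, and DESeq2 called 0 higher in either fraction, with 2 lower in somas and 1 in neurites. Their median SE was 0.41 in somas and 0.43 in neurites, against 0.19 for the cytosolic genes in somas. At this precision larger changes of single genes could be missed as well as small ones. Ears2 in somas, at 1.16 (SE 0.86, adjusted p = 0.347), was not called. Sars2 in neurites, at 1.26 (SE 0.77, adjusted p = 0.249), was not called either. Iars2 in somas, at -0.94 with a smaller SE of 0.20, was called.

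**Figure D5:**
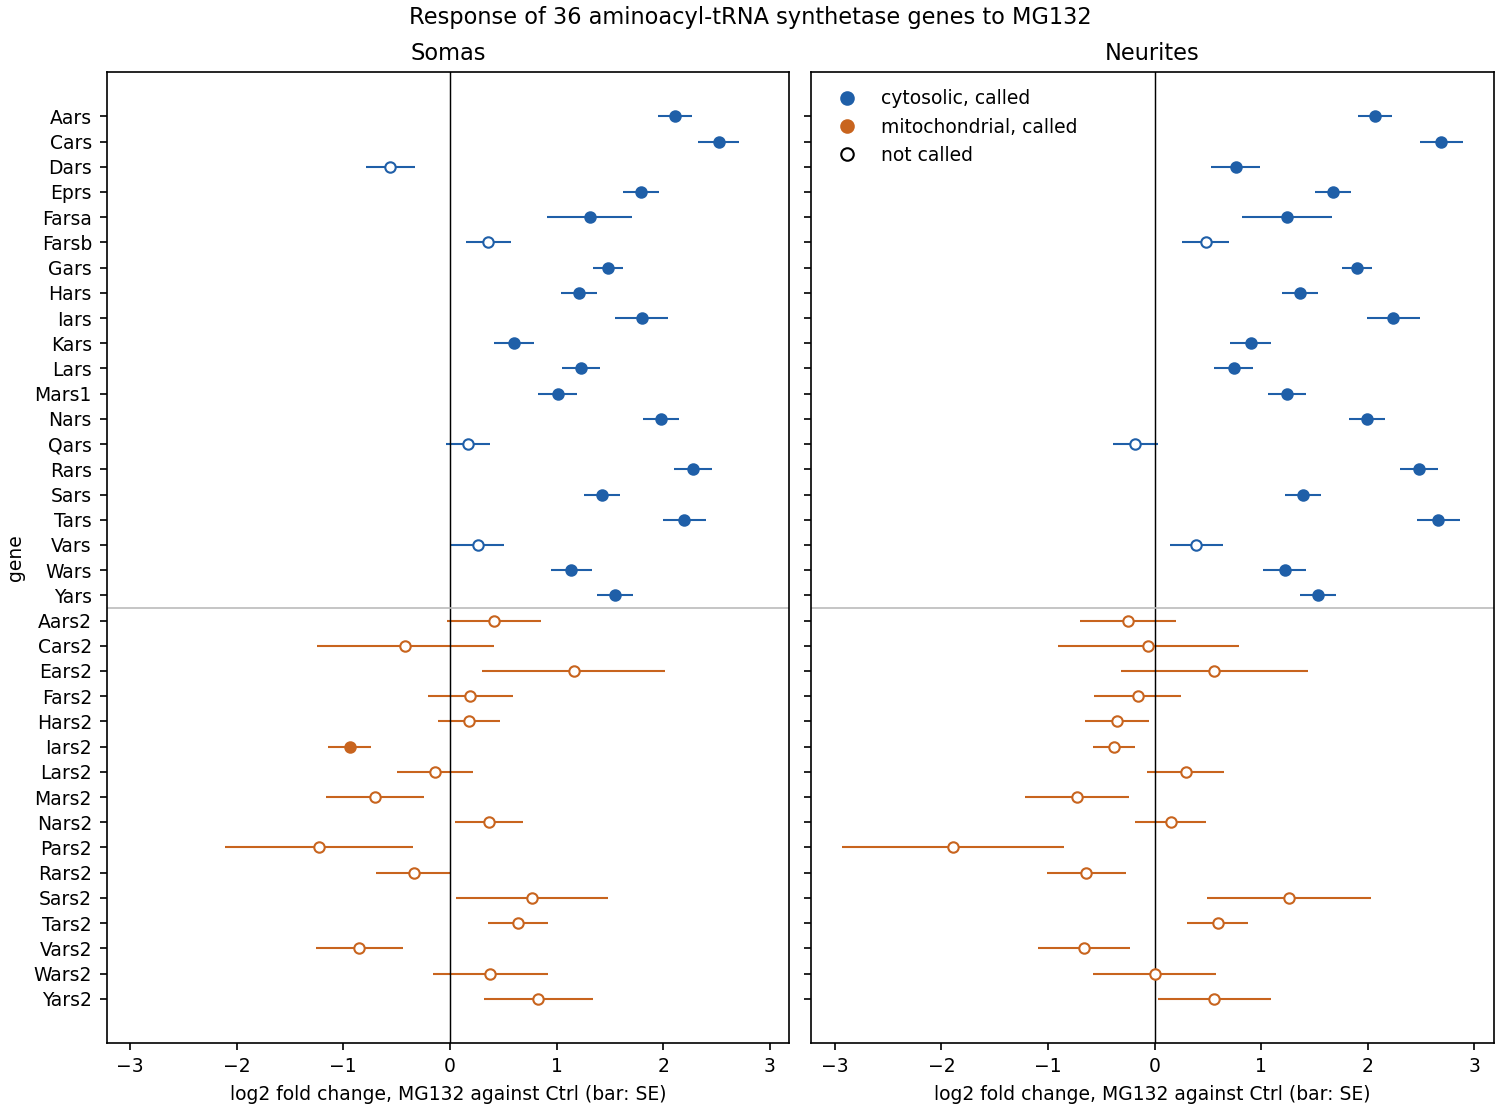
Each point is the log2 fold change of 1 gene under MG132 in somas (left) or neurites (right), with its SE, in blue for 20 cytosolic and orange for 16 mitochondrial genes. Filled points were called at an adjusted p under 0.05. Filled blue points lie to the right of 0 in both panels, and the only filled orange point, Iars2 in somas at -0.94, lies to the left.

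Iars2, the mitochondrial isoleucyl enzyme at chr1:185286642-185329419, was at 45.5, 46.7 and 34.4 CPM in Ctrl somas and 19.6, 24.6 and 21.9 in MG132 somas. It fell there, with a log2 fold change of -0.94 (SE 0.20, adjusted p = 0.00257). In neurites Iars2 was at 44.9, 37.4 and 40.3 CPM in Ctrl and 32.6, 28.1 and 33.7 after MG132, a log2 fold change of -0.38 (SE 0.20, adjusted p = 0.169). The 2 Iars2 changes differed by 0.56 (SE 0.28, adjusted p = 0.724). Its exons share 2034 bases with Rab3gap2 on the opposite strand, a gene that rose by 0.72 in somas and 0.91 in neurites, and the part of reads from the shared stretch was not tested.

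Among the mitochondrial genes that were not called, log2 fold changes in somas ran from -1.23 (SE 0.88) for Pars2, the prolyl enzyme, to 1.16 (SE 0.86) for Ears2. Ears2, the lowest gene per length in Ctrl somas, was at 1.31, 0.997 and 1.1 CPM there and 3.23, 1.58 and 2.78 in MG132 somas. In neurites Ears2 was at 0, 2.68 and 1.18 CPM in Ctrl and 1.14, 2.85 and 1.95 after MG132. Its soma groups did not overlap, but at an SE near the size of the change it stayed short of a call (adjusted p = 0.347). Tars2, the mitochondrial threonyl enzyme, came nearest to a call among those with positive values, with 0.64 (SE 0.28, adjusted p = 0.0974) in somas and 0.59 (SE 0.29, adjusted p = 0.141) in neurites. Lars2 was at 11662, 13070 and 19879 CPM in Ctrl somas and 9553, 17072 and 13837 in MG132 somas, groups that overlapped, with a log2 fold change of -0.14 (SE 0.36, adjusted p = 0.814). In neurites it was 0.29 (SE 0.36, adjusted p = 0.588).

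Of the amino acids, 14 have 1 cytosolic and 1 mitochondrial gene, which allows the 2 enzymes for the same amino acid to be set side by side. In 14 of these 14 pairs the cytosolic log2 fold change was the larger, in somas and in neurites. The difference had a median of 1.47 in somas, from 0.66 for Sars and Sars2 to 2.93 for Cars and Cars2. In neurites the median was 1.91, from 0.13 for Sars and Sars2 to 3.13 for Rars and Rars2. Without Lars and Lars2, a setting chosen after the values were seen, the cytosolic value was the larger in 13 of 13 pairs in both fractions, with medians of 1.56 and 1.97. The genes that share an amino acid but not the 1-to-1 form were Eprs with Ears2 and Pars2 (differences of 0.63 and 3.02 in somas) and Farsa and Farsb with Fars2 (1.12 and 0.17). Tarsl2, a threonyl synthetase-like gene that the symbol rule did not take, is in none of these pairs. Its values went the other way, at -0.62 (SE 0.36) in somas and 0.11 (SE 0.37) in neurites, below Tars2 at 0.64 and 0.59. Between the class medians the difference was 1.19 in somas and 1.54 in neurites, and over same-numbered libraries it was 1.53, 0.88 and 1.82 in somas and 1.54, 1.45 and 1.73 in neurites. Without Lars2 the differences between class medians were 1.18 and 1.58.

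Fewer synthetases were called between neurites and somas than between treatments. These comparisons use the same libraries as those above. In Ctrl neurons 3 of 37 were higher in neurites and 1 was lower, where 10.2% and 4.65% of all tested genes were. The 3 were Nars, Lars and Eprs, and the 1 was Mars1. Nars stood at 101 to 120 CPM in Ctrl somas and 160 to 224 in Ctrl neurites (log2 fold change 0.72, SE 0.17, adjusted p = 0.00871). Lars was at 48.1, 56.6 and 51 CPM in Ctrl somas and 65.5, 96 and 91.2 in Ctrl neurites (0.70, SE 0.18, adjusted p = 0.016). Mars1 went the other way, from 27.1, 31.8 and 25.8 CPM in somas to 18.2, 16.2 and 19.8 in neurites (-0.64, SE 0.18, adjusted p = 0.0262). None of these 3 sets of libraries overlapped between the fractions. Each of the calls was lost without some library, Nars without Ctrl soma library 1 or Ctrl neurite library 3 (0.48 to 0.82 over the 6 fits), Lars without Ctrl soma library 1 or 3 or Ctrl neurite library 2 or 3 (0.57 to 0.86), and Mars1 without library 2 of either fraction (-0.79 to -0.56). Eprs (0.56, SE 0.17, adjusted p = 0.0367) kept its call only without Ctrl neurite library 1 (0.34 to 0.67). With the replicate block Iars was also called lower (-0.58, adjusted p = 0.0241) and Lars2 higher (1.06, adjusted p = 0.00335) in Ctrl neurites.

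In MG132 neurons 7 of 37 were higher in neurites and none was lower, where 11.4% and 6.35% of all tested genes were. Lars2 was at 9553, 17072 and 13837 CPM in somas and 34558, 20709 and 55572 in neurites (1.45, SE 0.37, adjusted p = 0.0134), and this call was lost without MG132 soma library 1 or MG132 neurite library 3 (1.10 to 1.74 over the 6 fits). Dars had 31.5, 44.2 and 62.5 CPM in somas and 110, 123 and 136 in neurites, with no overlap (1.42, SE 0.23, adjusted p = 6.57e-04). Nars rose from 422 to 472 CPM in somas to 707 to 767 in neurites (0.73, SE 0.17, adjusted p = 0.00658). The others were Kars (0.68), Tars (0.61), Hars (0.52) and Rars (0.52). Kars lost its call without MG132 soma library 1 or MG132 neurite library 2 (0.59 to 0.76), and Tars without library 1 or 2 of either fraction (0.54 to 0.72). Hars kept its call only without MG132 soma library 3 (0.44 to 0.63), and Rars only without MG132 neurite library 3 (0.40 to 0.63). Eprs was added with the replicate block (0.45, adjusted p = 0.0191). The split between higher and lower rests on the scaling. With total counts and no TMM factors, 0 genes were higher and 4 lower in Ctrl neurons, and 0 higher and 14 lower in MG132 neurons. That scaling moved the median of all tested genes to -0.70 and -0.86, and the medians of the 20 cytosolic genes, at -0.53 and -0.60, stayed above it, as they did with TMM (0.12 and 0.16 beside -0.04 and -0.08). Of the 8 astrocyte markers 4 were higher and 1 lower in Ctrl neurites, and 5 higher and 1 lower in MG132 neurites. Gfap had log2 fold changes of 3.18 and 3.14, and Gja1 of -1.08 and -1.05. Of the 7 oligodendrocyte lineage markers only Mbp was called in Ctrl (2.89), and none was called in MG132. Over all tested genes 10.2% were higher and 4.65% lower in Ctrl, and 11.4% and 6.35% in MG132. The part of glial RNA in the synthetase differences was not tested.

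Other proteins that serve tRNA charging were called in both directions under MG132. Of 16 such genes 3 rose and 4 fell in somas, and 4 rose and 2 fell in neurites, with medians of 0.01 and 0.07, beside 15.5% of all tested genes called higher and 11.9% lower in somas and 14.7% and 12.3% in neurites. The counts higher in somas and lower in neurites were near the shares over all genes. Xpot, the exporter that carries tRNA out of the nucleus, rose from a mean of 44.7 to 123 CPM in somas (1.46, SE 0.18, adjusted p = 6.81e-05) and by 1.59 in neurites. Pstk, a kinase in the route to selenocysteine tRNA, fell in somas from 10.8 to 2.73 CPM (-1.93, SE 0.47, adjusted p = 0.00708) and had a value of -1.11 in neurites (adjusted p = 0.109). Gatb, a subunit of the mitochondrial complex that makes glutaminyl-tRNA, fell in both, with log2 fold changes of -1.49 (SE 0.38, adjusted p = 0.00867) in somas and -1.14 in neurites. The scaffold proteins of the multisynthetase complex were called once in 6 tests, when Aimp1 rose by 1.10 in neurites (SE 0.28, adjusted p = 0.0102). Aimp2 and Eef1e1 had values of -0.22 and 0.36 in somas.

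Genes of the amino acid response rose in the same libraries. Of 25 listed genes 20 rose and none fell in somas, and 16 rose and 1 fell in neurites, with medians of 2.36 and 2.05, where 15.5% and 11.9% of all tested genes were called higher and lower in somas and 14.7% and 12.3% in neurites. The transcription factor Atf4 itself was at a mean of 20.7 CPM in Ctrl somas and 110 in MG132 somas (2.42, SE 0.22, adjusted p = 4.94e-06), and rose by 2.28 in neurites. The largest changes in somas were those of Slc7a11, the cystine and glutamate exchanger (14.5 to 925 CPM, 5.99, SE 0.22), Chac1, which degrades glutathione (1.59 to 51.8 CPM, 5.04, SE 0.33), and Trib3, a pseudokinase induced by stress (1.05 to 27.2 CPM, 4.70, SE 0.60). Asns, which makes asparagine, rose by 2.46 and 2.74. Atf5 was the 1 gene that fell in neurites, with a log2 fold change of -1.48 (SE 0.25), and had a value of 0.00 in somas. This list holds no synthetase, so the genes counted here are separate from the 37.

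Translation factors of the mitochondrion were counted as well. Of 10 listed genes 9 were matched and tested, 2 rose and none fell in somas, and 3 rose and none fell in neurites, with medians of 0.14 and 0.41. Over all tested genes 15.5% were called higher and 11.9% lower in somas, and 14.7% and 12.3% in neurites. The count higher in somas was near the share over all genes. The difference between these factors and the mitochondrial synthetases was not tested. Those that rose in somas were Mtrf1l, a release factor (0.96, SE 0.34, adjusted p = 0.0449), and Gfm1, an elongation factor (0.86, SE 0.23, adjusted p = 0.0137). In neurites they were Mtif2, Tufm and Mtrf1l, at 0.84, 2.19 and 1.60. Tufm was low, with means of 1.26 CPM in Ctrl neurites and 5.79 in MG132 neurites.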

How the data were processed

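RNA was measured in 12 libraries, 3 each of Ctrl somas, MG132 somas, Ctrl neurites and MG132 neurites, after polyA selection. The deposited values are raw read counts per gene by Entrez identifier. Per the labels and the methods, the authors trimmed reads with Trimmomatic 0.38.0, aligned them to mm10 with STAR, and counted with featureCounts 2.0.1, both at default settings. The strand setting was not given in the sources used here. Under those defaults a read that overlaps 2 genes is assigned to neither.

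Groups came from the labels. The filter on low counts was filterByExpr with the 4 groups, and 14185 genes passed it. Libraries were scaled with TMM factors (0.567 to 1.44). One edgeR quasi-likelihood model (R 4.3.3, edgeR 4.0.16) with 4 group means was fitted over 12 libraries, on totals of 4247610 to 22166347 counts, and p-values were adjusted by the Benjamini-Hochberg method. SE was taken as the size of the log2 fold change over the root of edgeR's F statistic. Libraries with the same replicate number deviated together from their group means in every pair within the 4 comparisons of 2 groups (correlation 0.165 to 0.248). For 1 same-numbered pair across both factors the correlation was 0.0972. The number was taken to pair libraries on these values. For different numbers the mean was -0.0998. Deviations from a group mean cancel within the group, so that value follows from the others and is no separate evidence. The pairing was fitted as an alternative block. None of the 66 pairs of libraries was identical.

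The members, lists and tests were chosen with earlier results of these data known. Described in full were, by rule, the 5 cytosolic and 3 mitochondrial called genes with the largest change under MG132. The rule also took the 3 called genes with the largest change between fractions and the 2 with the smallest p for the difference of responses. It further took Gars, Kars, and the genes highest and lowest per length in Ctrl somas. Qars, Vars, Farsb, Farsa and Tars2 and, in the lists, Atf4, Asns and Aimp1 were named after their values were seen. Level per length divides CPM by the exon bases of the RefSeq-linked transcripts in GENCODE M21. Lars2 was compared with all transcripts by BLAST 2.17.0. Alternatives included DESeq2 1.42.0, other scalings and filters, stricter calls and leaving out each library. The scripts for tests across genes were tested on simulated data. Some items are not reported here.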

Additional observations from a re-analysis of the deposited data

Results flagged for a closer look

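Dars gave responses to MG132 of opposite sign in the 2 fractions, with every same-numbered pair lower in somas and every pair higher in neurites. The difference between the responses (neurites minus somas) was 1.32 on the log2 scale (edgeR adjusted p = 0.328, and adjusted p = 0.00557 with the replicate block). Qars also moved one way in all 3 somas pairs (higher) and the other way in all 3 neurites pairs (lower). Its difference of responses was -0.35 (edgeR adjusted p = 0.888, and adjusted p = 0.712 with the block), and its groups overlapped in both fractions.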

How the results depend on the processing

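Counts of calls are given here as somas and then neurites unless a comparison is named. The 16 and 17 cytosolic genes called higher were 14 to 16 and 15 to 17 when any 1 library was left out, and 7 and 7 at an adjusted p under 0.01 with an absolute log2 fold change above 1.7. Cytosolic calls lower in somas were 0, and 1 (Dars) with DESeq2 size factors, with at least 10 counts in every library, with the replicate block and in DESeq2, and 0 to 1 with 1 library left out. Mitochondrial calls lower were 2 and 1, with 1 in somas under the fold limit, and 2 to 2 and 1 to 2 with 1 library left out, the 2 arising without MG132 neurite library 2. For neurites against somas in Ctrl (3 higher, 1 lower), the counts were 0 higher and 4 lower with total counts, 1 higher and 0 lower at adjusted p under 0.01, 0 and 0 with either fold limit added, 2 lower with the block, 0 lower when fitted on the compared groups alone, and 0 to 3 higher and 0 to 1 lower with 1 library left out. In MG132 (7 higher, 0 lower), they were 0 and 14 with total counts, 2 higher at adjusted p under 0.01, 1 with a limit of 1.7-fold, 0 with a log2 limit of 1.7, 1 lower at 10 counts or more in every library, and 2 to 6 higher and 0 to 2 lower with 1 library left out. The difference of responses had 0 calls, and 1 higher (Dars) with the block and in DESeq2. The cytosolic minus mitochondrial difference of medians was 1.07 to 1.78 in somas and 1.47 to 1.79 in neurites with 1 library left out, or 1.03 to 1.48 and 1.48 to 1.80 without Lars2 as well, and in neurites 1.36 with total counts and 1.74 at 10 counts or more. Nars between fractions in MG132 reversed to -0.06 with total counts. Lars2 in somas (-0.14) ran from -0.34 to 0.12 with 1 library left out, and was 0.05 without MG132 soma library 1 and 0.12 without Ctrl soma library 3. The replicate block changed no call on a member other than those given for Dars, Eprs, Iars and Lars2. The cause of these shifts was not tested. Median SE was 0.41 for the mitochondrial and 0.19 for the cytosolic genes in somas, and the part of depth in this was not tested.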
